A study of Mus musculus with 6 samples.

Results

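Kininogens and the renin-angiotensin genes encode the precursors, enzymes and receptors of linked pairs of peptide hormones, bradykinin and angiotensin. The 9 genes described here are *Kng1*, *Kng2*, *Klkb1*, *Bdkrb1*, *Bdkrb2*, *Agt*, *Ace*, *Agtr1a* and *Agtr2*, each on 1 of the 19445 loci of the deposited table. They were selected with the difference between genotypes in these same samples known, *Kng2* and *Agt* being among the largest differences of the table. Their fold changes are therefore given as descriptions, without a test. RNA-Seq was performed on inguinal subcutaneous white fat (iWAT) of 3 *Hlx* transgenic (TG) mice and 3 wild-type (WT) littermates, all 12 weeks old. The transgene places *Hlx*, a homeobox transcription factor, under the fat-directed aP2 (*Fabp4*) promoter, and the WT mice carry no transgene. Whole tissue was sequenced, so adipocytes, vessels and immune cells contribute to every value. Levels are FPKM, the reads on a gene scaled by transcript length and library size, so that genes can be set side by side.

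*Hlx* stood at 109.7, 79.6 and 99.5 FPKM in the 3 TG mice and at 6.88, 7.35 and 8.14 FPKM in the 3 WT mice (log2 fold change 3.51, standard error 0.13, adjusted p = 0.000106, limma, n = 3 per genotype), which fits the genotype labels. The labels call all mice male, whereas *Xist*, the X-inactivation RNA of female cells, was at 20.2 to 33.6 FPKM in all 6 samples and the 28 loci of chromosome Y were listed at 0. By these values all 6 samples read as female, in both genotypes and against the labels. FPKM summed over loci to between 466059 and 542096. Relative depth, read from the step between low values, ran from 0.692 in TG replicate 3 to 1.41 in WT replicate 2 with WT replicate 3 set at 1. It rests on the 12.5% to 15.2% of low loci whose values lay on that step, and the absolute depth is unknown.

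Kallikreins release bradykinin from kininogen, and bradykinin dilates vessels through a constitutive receptor, *Bdkrb2*, and an inducible receptor, *Bdkrb1*. Renin releases angiotensin I from angiotensinogen, the product of *Agt*, and angiotensin-converting enzyme, the product of *Ace*, trims it to angiotensin II, which acts on the receptors encoded by *Agtr1a* and *Agtr2*. Angiotensin-converting enzyme also inactivates bradykinin and so joins both systems, and adipose tissue is a well-known source of angiotensinogen outside the liver.

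The promoters of *Kng2*, *Agt* and *Ace* are shown because these are the expressed members whose levels did not overlap between genotypes. Each run holds the 250 bases before the RefSeq start (GRCm38.p6), read 5′ to 3′ on the strand of the gene. Capitals mark a match, on either strand, to the TATA box word TATAAA, the CCAAT box, the homeodomain word TAATTA or the nuclear receptor word AGGTCA, and no match overlaps another. *Kng2* is taken from chr16:23029102-23029351 (minus strand), *Agt* from chr8:124569707-124569956 (minus strand) and *Ace*, at its upstream start, from chr11:105967698-105967947 (plus strand). GENCODE places the upstream end of *Kng2* at position 23029482, so the whole *Kng2* run lies inside that gene span. The deposited *Kng2* locus ends at 23029150, within the run. The start used in this fat is not known.
Kng2: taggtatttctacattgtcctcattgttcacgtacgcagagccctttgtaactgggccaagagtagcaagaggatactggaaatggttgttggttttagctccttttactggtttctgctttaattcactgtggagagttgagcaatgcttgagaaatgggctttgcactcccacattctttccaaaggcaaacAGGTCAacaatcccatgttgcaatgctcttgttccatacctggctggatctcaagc
Agt: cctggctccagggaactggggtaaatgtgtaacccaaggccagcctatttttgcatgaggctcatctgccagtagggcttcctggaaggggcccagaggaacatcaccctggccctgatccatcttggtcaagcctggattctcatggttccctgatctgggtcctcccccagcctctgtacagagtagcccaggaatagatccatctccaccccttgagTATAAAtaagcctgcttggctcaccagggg
Ace: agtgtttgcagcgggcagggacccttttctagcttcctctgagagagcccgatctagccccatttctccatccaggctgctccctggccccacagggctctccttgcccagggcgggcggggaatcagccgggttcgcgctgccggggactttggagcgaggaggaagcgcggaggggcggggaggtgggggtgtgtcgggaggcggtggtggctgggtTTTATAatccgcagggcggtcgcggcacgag
In the *Agt* run TATAAA begins 30 bases before the start, and in the *Ace* run its reverse complement begins 31 bases before the start. Across all 32851 promoter entries, 12.4% held TATAAA on either strand. The *Kng2* run has no TATAAA but holds AGGTCA 56 bases before the start, and 14.0% of all promoters held that word. The promoter entry of *Ace* at its downstream start, which is not shown, also holds the nuclear receptor word, 50 bases before that start. The word is therefore not particular to *Kng2* among these genes. TAATTA, found in 4.84% of all promoters, was in none of the 7 entries that 6 of the 9 genes have. GC content was 44.4% for *Kng2*, 55.6% for *Agt* and 67.2% for *Ace*, against a median of 52.4% over all promoters. These matches describe letters and do not show binding.

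*Kng2* (ENSMUSG00000060459.14, mm10, chr16:22985146-23029150, minus strand, longest transcript of 10 exons) encodes a kininogen. *Kng2* was at 73.8, 24.7 and 51.6 FPKM in the TG mice and at 0.480, 1.31 and 0.931 FPKM in the WT mice. Every TG value lay above every WT value, and the highest TG value was 2.98 times the lowest. The mean was 50.1 ± 24.6 FPKM (SD, n = 3) in TG and 0.908 ± 0.417 FPKM in WT, a 55.1-fold ratio of means, and the log2(FPKM + 1) difference was 4.64 ± 0.38 (standard error). In rank, 92.0% of loci lay below *Kng2* in TG iWAT and 40.6% in WT iWAT.

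*Kng1* (ENSMUSG00000022875.18, chr16:23058300-23082078, plus strand), the other mouse kininogen gene, lies 29150 bases from *Kng2*. It was listed at 0 in 5 of the 6 samples and at 0.0152 FPKM in WT replicate 2, so the kininogen RNA of both genotypes was assigned to *Kng2*. Both genes are near copies in places, since 4.93% of the 100-base windows of *Kng1* transcripts occur in *Kng2* transcripts and 5.29% of those of *Kng2* occur in *Kng1*. A read of 100 bases that matches exactly could therefore be told apart over most of each transcript. Windows of 25 bases were shared more often, 30.9% of those of *Kng1* and 35.9% of those of *Kng2*. How far reads placed with mismatches can be told apart was not tested. A processed pseudogene, *Gm6493*, overlaps the span of *Kng2* on the same strand, and whether it meets an exon was not examined.

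*Klkb1* (ENSMUSG00000109764.1, chr8:45269451-45294835, minus strand) encodes plasma prekallikrein, which cuts kininogen once active. It was at 0.532, 0.0724 and 0.167 FPKM in TG and at 0.0702, 0.0468 and 0.0661 FPKM in WT. The groups did not overlap, but the lowest TG value and the highest WT value were almost equal, and every value was below 1 FPKM. The neighbouring *F11*, 7420 bases away, had the same highest mouse, with 0.539, 0.0802 and 0.106 FPKM in TG and 0, 0 and 0.0183 FPKM in WT. On the other side of *Klkb1*, *Cyp4v3* was at 68.4 to 79.5 FPKM in TG and 30.4 to 33.0 FPKM in WT, and the gene model *Gm45753* overlaps *Klkb1* on the same strand. Their part in the *Klkb1* values was not tested.

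Both bradykinin receptors were low in every mouse. *Bdkrb1* (chr12:105604091-105605428) ranged from 0.0478 to 0.145 FPKM in TG and from 0.0936 to 0.132 FPKM in WT. *Bdkrb2* (chr12:105563172-105593071) ranged from 0.0355 to 0.0889 FPKM in TG and from 0.0269 to 0.152 FPKM in WT. For both receptors the genotypes overlapped, and at these levels a difference was not detectable.

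*Agt* (ENSMUSG00000031980.9, chr8:124556587-124569707, minus strand, 1 transcript of 5 exons) encodes the angiotensin precursor. *Agt* was at 0.801, 1.32 and 1.95 FPKM in the TG mice and at 32.9, 17.1 and 17.1 FPKM in the WT mice. All TG values lay below all WT values, WT replicates 2 and 3 were nearly equal, and WT replicate 1 was higher. The mean was 1.36 ± 0.58 FPKM in TG and 22.4 ± 9.13 FPKM in WT (SD, n = 3), 16.5 times higher in WT, and the log2(FPKM + 1) difference was −3.27 ± 0.28 (standard error). *Agt* stood above 83.2% of loci in WT and above 43.5% in TG.

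*Ace* (ENSMUSG00000020681.14, chr11:105967945-105989964, plus strand, 25 exons) encodes the converting enzyme of angiotensin and a main inactivator of bradykinin. *Ace* was at 12.2, 22.6 and 12.7 FPKM in TG and at 41.6, 24.0 and 29.6 FPKM in WT. The groups did not overlap, although TG replicate 2 came close to WT replicate 2. The mean was 15.8 ± 5.87 FPKM in TG and 31.7 ± 8.99 FPKM in WT (SD, n = 3), a TG to WT ratio of 0.499, and the log2(FPKM + 1) difference was −0.98 ± 0.27 (standard error). The antisense gene *Gm11651* overlaps the span of *Ace*, and the library kit does not mark strand. Reads from any bases in the transcripts of both cannot be told apart, and whether their exons meet was not examined.

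*Agtr1a* (ENSMUSG00000049115.15, chr13:30336356-30382867, plus strand) encodes the main angiotensin II receptor of the mouse. *Agtr1a* was at 7.26, 9.20 and 13.4 FPKM in TG and at 8.72, 7.27 and 9.07 FPKM in WT. The genotypes overlapped, with means of 9.96 ± 3.15 and 8.35 ± 0.956 FPKM (SD, n = 3) and a log2(FPKM + 1) difference of 0.20 ± 0.20 (standard error). Without TG replicate 3, the highest mouse, that difference was −0.021. *Agtr2* (chrX:21484626-21488831), the other receptor type, ranged from 0.0589 to 0.0982 FPKM in TG and from 0.0446 to 0.168 FPKM in WT, again with overlap.

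**Figure D1:**
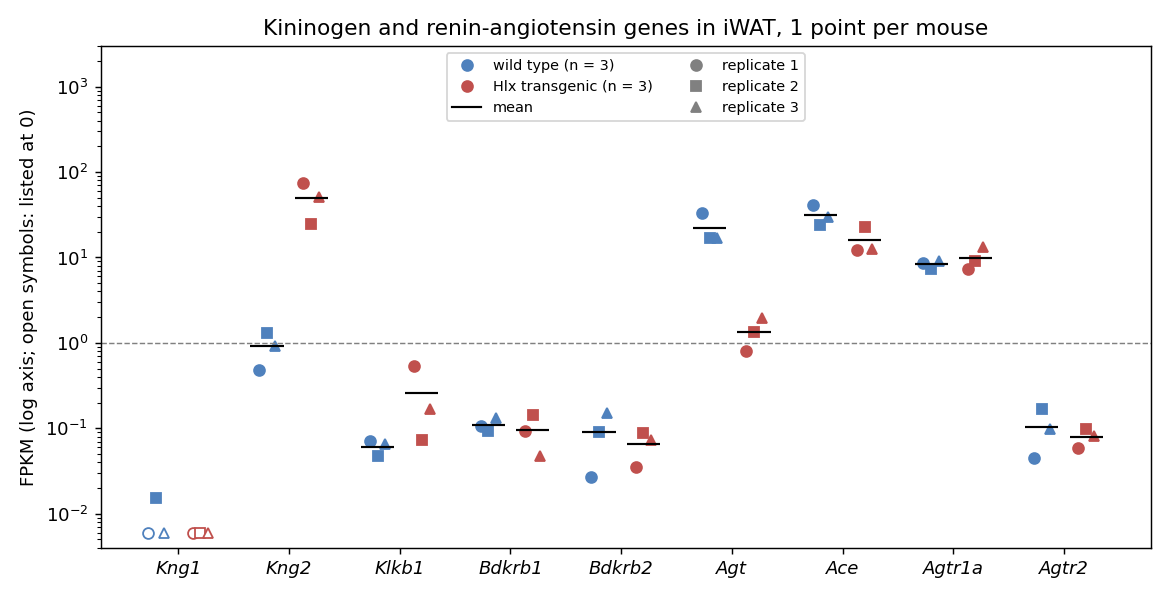
FPKM of the 9 genes by mouse on a log axis, with WT in blue, TG in red, a symbol for each replicate number, a black bar at each mean (none drawn for Kng1) and a dashed line at 1 FPKM; open symbols are listed at 0. Kng2 separates upward in TG (24.7 to 73.8 against 0.480 to 1.31), Agt and Ace separate downward, Agtr1a overlaps, and the other 5 genes lie below 1 FPKM in all mice.

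The plot of the 9 genes by mouse shows that 4 of them (*Kng2*, *Agt*, *Ace* and *Agtr1a*) passed the filter of a mean over 1 FPKM in at least 1 genotype, while 5 did not. Of the 4, 1 had every TG value over every WT value and 2 had every TG value under every WT value. Among the 11692 loci that passed, 22.8% and 20.1% were separated in those directions. Nothing is read from the members' counts, since the genes were chosen on this contrast.

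The order of levels differed between genotypes. In WT iWAT, *Ace* and *Agt* were highest and overlapped, followed by *Agtr1a*, then *Kng2*, then *Bdkrb1*, *Agtr2*, *Bdkrb2* and *Klkb1*, whose neighbours in the order overlapped, and *Kng1* last. In TG iWAT, *Kng2* was first, its lowest mouse at 24.7 FPKM just above the highest *Ace* value of 22.6 FPKM. *Ace* and *Agtr1a* overlapped next, *Agt* followed below both, and the remaining genes were again below 1 FPKM, in the order *Klkb1*, *Bdkrb1*, *Agtr2* and *Bdkrb2*, with overlaps between neighbours, and *Kng1* last.

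Shares of the summed FPKM of the 9 genes put each mouse on its own scale. *Kng2* made up 77.9%, 42.4% and 64.5% of the sum in the TG mice and 0.571%, 2.62% and 1.63% in the WT mice. *Agt* made up 0.846%, 2.27% and 2.44% in TG and 39.2%, 34.1% and 29.9% in WT. The sum itself overlapped, at 94.7, 58.3 and 80.1 FPKM in TG and 83.9, 50.1 and 57.1 FPKM in WT. Of the precursor RNAs, *Agt* had the larger share in every WT mouse and *Kng2* in every TG mouse. The ratio of *Agt* to *Ace*, precursor to converting enzyme, was 0.0659, 0.0585 and 0.153 in TG and 0.791, 0.712 and 0.577 in WT, with no overlap.

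**Figure D2:**
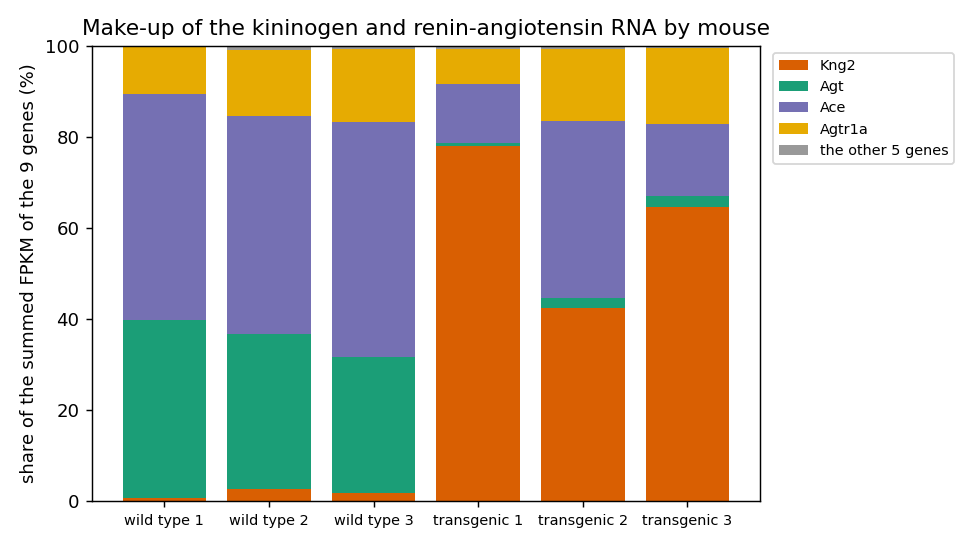
Stacked bars of the share (%) of the summed FPKM of the 9 genes that each gene takes, 1 bar per mouse. Agt and Ace together fill most of the 3 WT bars, and Kng2 takes 42.4% to 77.9% of the TG bars against at most 2.62% in WT.

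The stacked bars also show that TG replicate 2 had the smallest *Kng2* share and, at 38.8%, the largest *Ace* share of the TG mice (12.8% and 15.9% in the others). The same mouse had the lowest *Hlx* of the TG mice, 79.6 FPKM, and 119.1 FPKM of the muscle creatine kinase gene *Ckm*, against 14.0 and 19.3 FPKM in TG replicates 1 and 3. The part of these values in the spread was not tested. Leaving that mouse out, the log2(FPKM + 1) difference was 5.06 for *Kng2* and −1.25 for *Ace*.

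In whole tissue, fewer cells of a type and less RNA per cell cannot be told apart, so markers of the cells that could carry these genes are given beside them. *Ace* is a known endothelial gene. The summed FPKM of 10 endothelial markers ran from 214.2 to 230.5 in TG and from 213.2 to 221.9 in WT, with *Emcn* and *Kdr* higher and *Cldn5* lower at an adjusted p under 0.05. Macrophage markers summed to 611.8 to 893.8 FPKM in TG and 1104 to 1514 FPKM in WT. Limma called 5 of 9 lower at an adjusted p under 0.05, and all 9 were lower at an unadjusted p under 0.05. Smooth muscle and pericyte markers, cells in which *Agtr1a* is known, ran from 144.0 to 262.8 FPKM in TG and from 201.6 to 275.5 FPKM in WT, and limma called 0 of 10 (2 at an unadjusted p under 0.05). The macrophage list separated in the direction of *Ace*, the endothelial sums overlapped, and the part of either in the *Ace* difference was not tested.

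*Kng2* and *Agt* are best known from hepatocytes. Of 10 hepatocyte markers, 7 were under the filter, and *Fga* and *Cps1* were listed at 0 in all 6 samples. The summed level was 13.3 to 16.7 FPKM in TG and 39.7 to 55.4 FPKM in WT. *Alb* (log2 fold change −1.91, adjusted p = 0.00225, limma) made up most of it except in TG replicate 2. In that mouse *Alb* was at 5.82 FPKM of a sum of 13.7 FPKM. The other 2 markers tested, *Fgb* and *Serpina1c*, overlapped between genotypes and were not called. The sum, with *Alb* its largest part, was lower in TG, as *Agt* was, while *Kng2* was higher there. The part of this sum in either was not tested. Adipocyte markers summed to 34000 to 40400 FPKM in TG and 46830 to 63170 FPKM in WT, with 3 of 9 called lower (*Cfd*, *Retn* and *Adipoq*). Of the others, *Fabp4*, whose promoter drives the transgene, averaged 26590 FPKM in TG and 21940 FPKM in WT without overlap (adjusted p = 0.531, limma), and *Plin1*, *Lipe* and *Pparg* overlapped with log2 fold changes of 0.044, 0.053 and −0.016. *Lep* and *Cidec* overlapped as well, with log2 fold changes of −0.32 and −0.21. *Cfd* alone averaged 6110 FPKM in TG and 22270 FPKM in WT, so the sum follows that gene more than the list. Brown and beige adipocyte markers summed to 6173 to 7961 FPKM in TG and 615.3 to 1059 FPKM in WT, with 8 of 9 higher. The exception, *Dio2*, averaged 1.69 FPKM in TG and 2.38 FPKM in WT with overlap. The brown and beige sum was higher in TG, as *Kng2* was. The adipocyte sum, which follows *Cfd*, was lower, as *Agt* was, although limma called only 3 of 9 genes of that list lower. The part of either list was not tested. The other lists, those of fibroblasts, mast cells, lymphocytes, skeletal muscle and mammary epithelium, are drawn beside *Ace*.

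**Figure D3:**
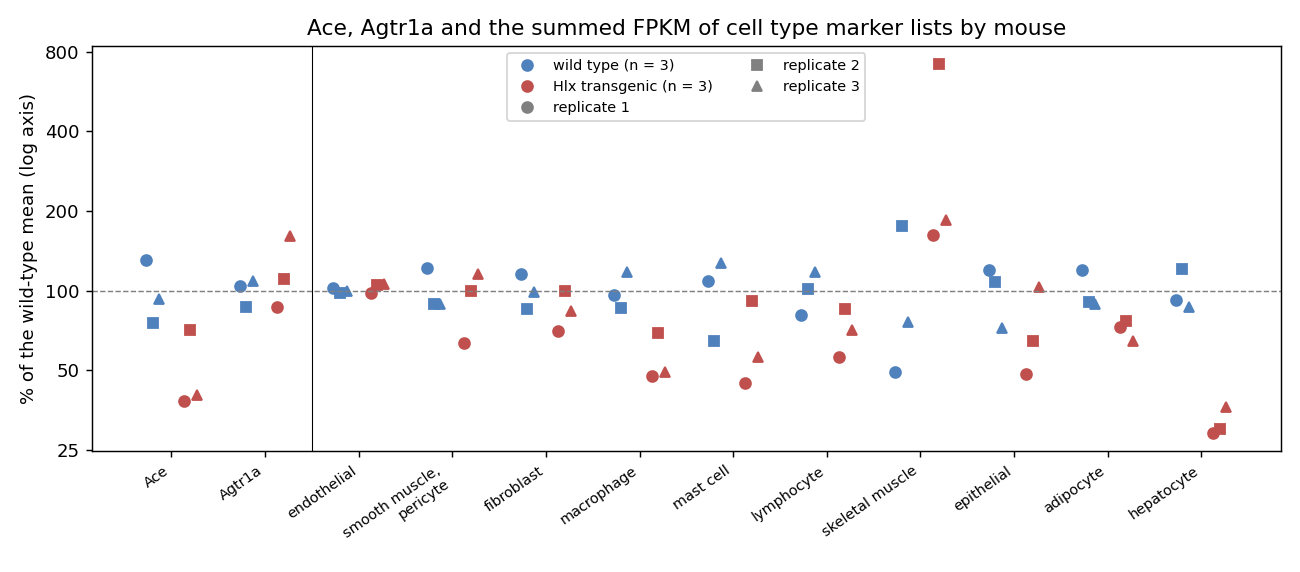
Ace, Agtr1a and the summed FPKM of cell type marker lists by mouse, each as a percent of its own WT mean on a log axis (WT blue, TG red, symbols for replicate numbers, dashed line at 100%). The TG values of Ace, macrophage, adipocyte and hepatocyte lists lie below all WT values, endothelial sums stay near 100% in all mice, and the skeletal muscle list is highest in TG replicate 2.

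In the plot of markers, fibroblast sums were 1497 to 2129 FPKM in TG and 1805 to 2453 FPKM in WT, and mast cell sums were 81.4 to 166.1 FPKM in TG and 117.0 to 230.5 FPKM in WT, with 0 genes called by limma in either list (2 fibroblast and 1 mast cell genes at an unadjusted p under 0.05). Lymphocyte sums were 236.0 to 358.0 FPKM in TG and 341.4 to 495.7 FPKM in WT. Limma called 1 lymphocyte gene lower (4 at an unadjusted p under 0.05). Epithelial sums were 125.5 to 266.7 FPKM in TG and 186.8 to 309.8 FPKM in WT, with 0 called (2 at an unadjusted p under 0.05). The skeletal muscle list ran from 156.4 to 689.5 FPKM in TG and from 47.1 to 168.0 FPKM in WT. Limma called 1 muscle gene higher (3 at an unadjusted p under 0.05). *Cma1*, *Mcpt4* and *Cpa3* are both mast cell markers and members of the renin-angiotensin list described next.

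Outside the 9 genes, 66 further genes of the pathways were examined, of which 65 were in the table and 51 passed the filter. The lists of these genes were also written with earlier results of these data known. Their counts and p-values are therefore not an independent test. *Ren1*, the renin gene, was not analysed here. Of the 51, limma at an adjusted p under 0.05 called 5 higher in TG (9.8%) and 5 lower (9.8%), against 11.6% and 7.03% of all loci tested. Their median log2 fold change was −0.0825, and that of all loci was −0.011. The counts fell when most single mice were left out, to 3 genes higher without TG replicate 1 or 3 or any 1 of the WT replicates. Those lower fell to 3 without TG replicate 1 or WT replicate 1 or 2, and to 2 without TG replicate 3 or WT replicate 3. Without TG replicate 2 they were 5 and 7. Counts over all loci fell without those same mice too, and the part of the smaller sample was not tested.

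Among 14 genes of the contact system and of kinin inhibition, 6 were tested, with 1 higher and 1 lower. *Serpina3c*, a serine protease inhibitor also named kallikrein-binding protein, fell from 77.4 ± 12.8 FPKM in WT to 39.5 ± 7.34 FPKM in TG (log2 fold change −0.96, standard error 0.17, adjusted p = 0.0113, n = 3, limma). *C1qbp*, a cell surface and mitochondrial protein that binds kininogen, rose from 90.8 ± 12.9 to 123.0 ± 7.16 FPKM (log2 fold change 0.44, standard error 0.12, adjusted p = 0.0471, limma), a call lost in 9 of 14 alternative analyses. *Serping1*, the C1 inhibitor that blocks plasma kallikrein, was at 182.0 ± 45.7 FPKM in TG and 286.8 ± 48.8 FPKM in WT and did not pass (adjusted p = 0.0627, limma). The clotting factor genes *F12* and *F11* and the tissue kallikrein *Klk1* had means below 1 FPKM in both genotypes. *Klk1* was at 0.472, 0.935 and 0.568 FPKM in TG and at 0.119, 0.397 and 0.281 FPKM in WT, without overlap. Of the genes of this list under the filter, *F11* and *Klk1* lay higher in TG without overlap, and *Klk11* and *Masp1* lay lower.

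Of 15 further renin-angiotensin genes, 9 were tested and limma called 0, with 1 at an unadjusted p under 0.05. That gene was *Ctsd*, a lysosomal aspartyl protease, at 1207 ± 182.4 FPKM in TG and 867.6 ± 91.5 FPKM in WT (adjusted p = 0.0802, limma). The mast cell chymases *Mcpt4* (log2 fold change −0.75, adjusted p = 0.213) and *Cma1* (log2 fold change −0.76, adjusted p = 0.17), which can form angiotensin II without *Ace*, did not pass in limma. Means of *Mas1* and *Mrgprd*, receptors of the counter-regulatory arm, were below 1 FPKM, and *Agtr1b*, the second mouse gene for the *Agtr1a* type of receptor, was listed at 0 in all mice.

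Of 17 peptidases that act on angiotensins or kinins, 16 were tested, with 1 higher and 2 lower. *Cpn2*, the regulatory subunit of the plasma kininase carboxypeptidase N, was at 6.34, 3.62 and 4.56 FPKM in TG and at 0.205, 0.0444 and 0.0413 FPKM in WT. It rose by 2.39 on the log2(FPKM + 1) scale (standard error 0.18, adjusted p = 0.000669, limma), and every TG mouse was above every WT mouse. That scale understates the change of so low a gene, whose ratio of means was 49.9 and whose difference with a pseudocount of 0.1 was 4.71. Its catalytic partner *Cpn1* averaged 0 FPKM in TG and 0.0194 FPKM in WT. *Prcp*, a lysosomal carboxypeptidase that removes the last residue of angiotensin II, fell from 14.6 ± 1.37 to 8.83 ± 1.24 FPKM (log2 fold change −0.67, standard error 0.12, adjusted p = 0.00974, limma). *Cpd*, carboxypeptidase D, fell from 16.8 ± 0.454 to 13.6 ± 0.889 FPKM (log2 fold change −0.28, standard error 0.076, adjusted p = 0.0435, limma), a call lost in 10 of 14 alternatives. The most abundant peptidases, *Enpep* (aminopeptidase A), *Mme* (neprilysin) and *Rnpep* (aminopeptidase B), had log2 fold changes of −0.23, 0.37 and 0.073 and did not pass.

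Both peptides signal mainly through Gq, phospholipase C and inositol trisphosphate receptors. The list of 20 genes for that route also held genes outside it, such as *Gnai2* and *Nos3*. All 20 were tested, with 3 higher and 2 lower. *Itpr2*, an inositol trisphosphate receptor, rose from 4.49 ± 0.472 to 20.8 ± 3.36 FPKM (log2 fold change 1.98, standard error 0.13, adjusted p = 0.000418, limma), and *Itpr1*, another such receptor, from 8.21 ± 0.929 to 18.0 ± 1.42 FPKM (log2 fold change 1.05, standard error 0.10, adjusted p = 0.00123, limma). Among the phospholipases, *Plcb4* rose (log2 fold change 0.52, adjusted p = 0.0295, limma) and *Plcb1* fell (log2 fold change −0.47, adjusted p = 0.0265, limma). *Arrb2*, an arrestin that desensitises these receptors, fell by 0.36 on the log2 scale (adjusted p = 0.0438, limma). The last 3 calls were lost in 7, 6 and 7 of 14 alternatives, respectively, whereas those of *Itpr1*, *Itpr2*, *Cpn2* and *Prcp* held in all 14. *Gnai2*, *Rgs5* and *Adrbk1*, the most abundant genes of the list, had log2 fold changes of −0.29, 0.16 and −0.26 and did not pass.

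**Figure D4:**
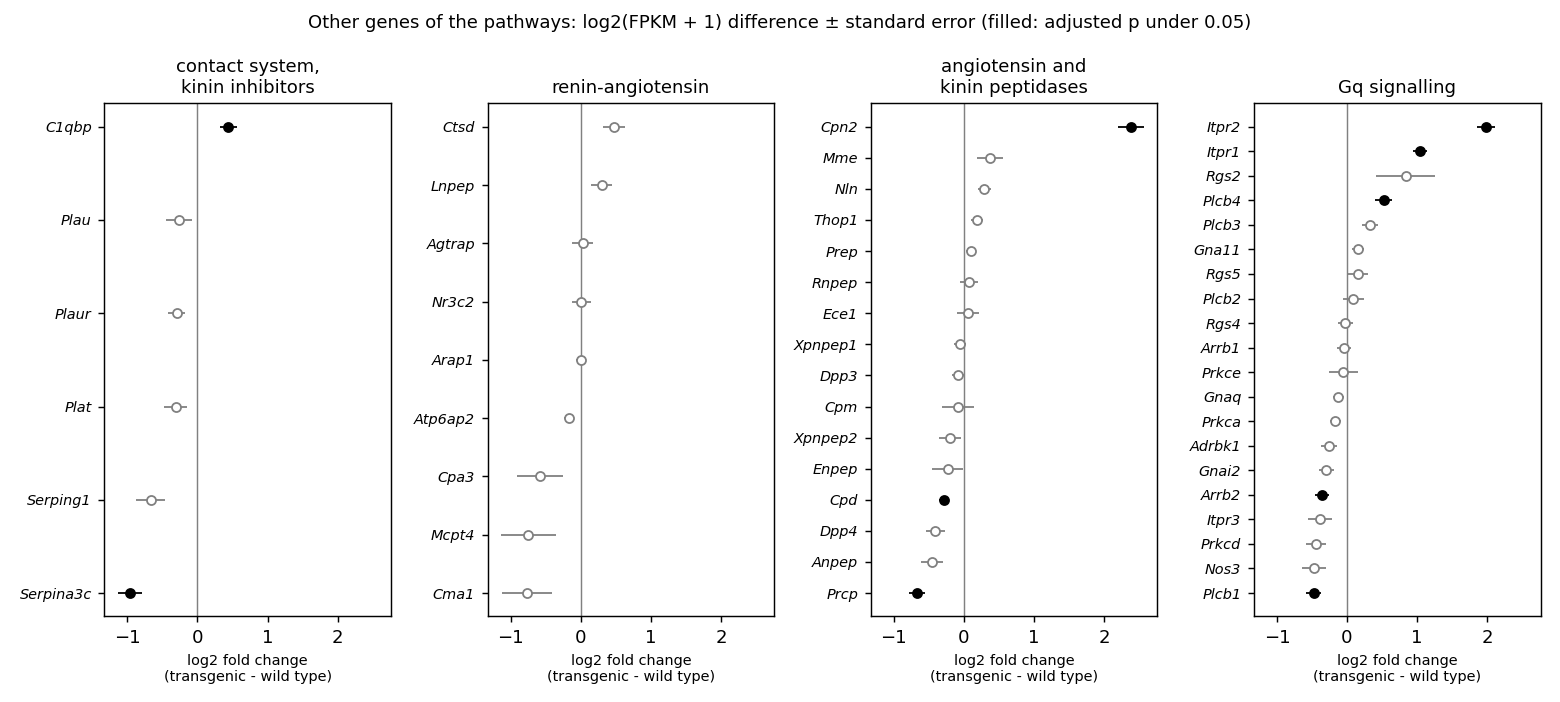
Log2 fold changes (TG minus WT, on log2(FPKM + 1)) of the 51 further pathway genes that passed the filter, in 4 panels by list, with bars of 1 standard error; filled points have an adjusted p under 0.05 in limma. Filled points are few and lie on both sides of 0, with Cpn2 (2.39), Itpr2 (1.98) and Itpr1 (1.05) farthest to the right.

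The genes beside the members were read for comparison. Next to *Kng2*, *Hrg* was listed at 0 in all mice, *Fetub* averaged 0.532 FPKM in TG and 0.112 FPKM in WT with no overlap, and *Eif4a2* differed by 0.26 on the log2 scale (adjusted p = 0.0908, limma). *Cog2*, 1596 bases from *Agt*, averaged 14.7 FPKM in TG and 12.6 FPKM in WT (log2 fold change 0.21, adjusted p = 0.102, limma). Near *Ace*, *Ace3* was listed at 0 and *Cyb561* averaged 2.25 and 2.80 FPKM (adjusted p = 0.402, limma).

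The profiles most like those of *Kng2* and *Agt* across the 6 mice were ranked by Euclidean distance between log2(FPKM + 1) values centred on each locus, among 11325 loci with 1 symbol. For *Kng2* the 5 nearest were *S100b* at a distance of 1.16, *Cox7a1* at 1.26, *Phospho1* at 1.30, *Hlx* at 1.63 and *Acot11* at 1.63. For *Agt* they were *Serpina3n* at 1.31, *Rps28* at 1.38, *Ffar2* at 1.40, *Slc7a10* at 1.44 and *Klhl2* at 1.58, the *Rps28* locus overlapping another gene. The distance is a description over 6 mice and says nothing of shared control.

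**Figure D5:**
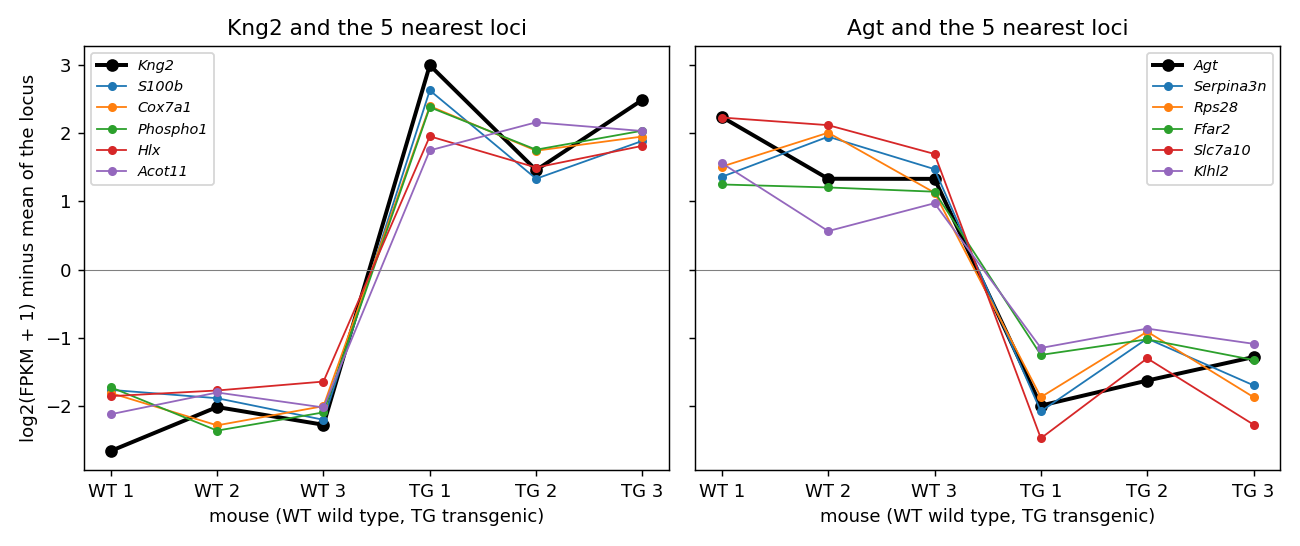
Centred log2(FPKM + 1) of Kng2 (left, black) and Agt (right, black) with the 5 nearest loci of each, over the 3 WT and 3 TG mice; lines only join the points of a locus. All 6 profiles on the left are high in TG and all 6 on the right are low, and Kng2 is lowest of the TG mice in replicate 2.

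In the plot of nearest profiles, *Kng2* and each of its 5 neighbours other than *Acot11* were lowest among the TG mice in replicate 2. *Agt* was lowest in TG replicate 1, as were the other 5 loci on its side except *Ffar2*.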

How the data were processed

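iWAT RNA of 3 TG and 3 WT mice was sequenced as single-end reads of 100 bases from an Illumina TruSeq v2 kit. The study's methods name TopHat and Cufflinks on mm10, and the submitters' processing notes list CASAVA 1.8.2, TopHat2 2.0.9, Bowtie2 2.1.0 and Cufflinks 2.2.1. The authors deposited FPKM per locus and sample. Reads were not used here, depth is unknown, and the study's Cuffdiff test, which needs reads, was replaced.

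log2(FPKM + 1) of 11692 loci with a mean over 1 FPKM in at least 1 genotype entered limma 3.58.1 under R 4.3.3 (lmFit, then eBayes with trend, two-sided, Benjamini-Hochberg adjustment, threshold 0.05), after a test on simulated data. Members and gene lists were chosen with earlier results of these data known. Named were the 9 members, *Hlx*, every pathway gene past the threshold, the 3 most abundant genes of each pathway list and the 5 loci nearest to *Kng2* and *Agt* in pattern. *Ckm*, single marker genes, neighbouring loci and low pathway genes were named after their values were seen. For *Itpr2*, listed on 3 loci, and *Masp1*, listed on 2, the locus of highest mean FPKM was used. Samples were grouped by title. The numbered samples were taken as separate mice, and p-values measure the spread between them. The alternatives were a pseudocount of 0.1, other filters and scalings, other variance settings, a replicate block and leaving out each sample. Promoters are RefSeq's (GRCm38.p6), and transcripts are those of GENCODE on the same build. Figures were drawn with matplotlib 3.10.9 in Python 3.11.15.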

Additional observations from a re-analysis of the deposited data

How the results depend on the processing

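Without the filter on low values, 748 loci were higher and 381 lower in TG (1352 and 822 with it), and 3 pathway genes outside the members were higher and 2 lower. Without the mean-variance trend 3 pathway genes were lower. Leaving out single mice gave 780 to 1295 loci higher, 329 to 906 lower, 3 to 5 pathway genes higher and 2 to 7 lower, the fewest higher loci without WT replicate 3 and the fewest lower loci without TG replicate 3. With a pseudocount of 0.1 the difference was 5.59 for *Kng2*, −3.95 for *Agt* and 4.71 for *Cpn2*, an alternative that by construction widens differences of low values. Leaving out single mice, it ran from 4.29 to 5.06 for *Kng2*, from −3.45 to −2.97 for *Agt*, from −1.25 to −0.77 for *Ace* and from −0.021 to 0.38 for *Agtr1a*. *Enpep* changed sign without WT replicate 3 (0.007, over a range of −0.36 to 0.007), and *Rnpep* without WT replicate 2 (−0.048, over a range of −0.048 to 0.17), and neither was called in any alternative. *Serpina3c* lost its call without the filter (adjusted p = 0.0633, limma). *Serping1* was called with quantile scaling and without TG replicate 2 (adjusted p from 0.0176 to 0.174 over the alternatives), *Gnai2* with quantile scaling and *Cma1* without TG replicate 2. For the other losses, the cause was not tested. Same-numbered samples of the genotypes had correlations of deviations of 0.0129, 0.0344 and 0.0701. Values were larger for TG replicate 1 with WT replicate 2 (0.135), TG replicate 3 with WT replicate 1 (0.125) and TG replicate 2 with WT replicate 3 (0.106), and the remaining pairs were negative. With 3 mice per genotype these values cannot decide whether the mice are paired, by number or in another order. With a replicate block, 1230 loci were higher and 656 lower, with 6 and 4 pathway genes. The planned sum over loci of a symbol gave no other value, since each member is on 1 locus. Scaling moved the median of all loci by less than 0.1 on the log2 scale.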
